A study of Homo sapiens with 4 samples.

Results

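The 10 genes described here belong to the YAP and TAZ pathway. They were chosen by name, and each was matched to 1 Ensembl gene among the 58735 genes of the count table. YAP1 and WWTR1 encode the coactivators YAP and TAZ, and TEAD1 and TEAD4 encode DNA-binding partners that recruit them to chromatin. CCN1, CCN2, ANKRD1, AMOTL2, LATS2 and AXL are commonly used as their target genes. RNA was sequenced from the human lines MDA-MB-231 and SUM159, both from triple-negative breast cancer, after 72 h with 1 μM mebendazole (MBZ), an anthelmintic benzimidazole that binds tubulin, or with its solvent DMSO as vehicle control. Each line with each treatment gave 1 library, so that 4 groups of 1 library each were compared and no change within a line had a replicate check. MDA-MB-231 and SUM159 are established lines, and nothing states that the libraries came from separate experiments.

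YAP and TAZ are held in check by the Hippo kinase cascade, in which MST kinases activate LATS kinases, and phosphorylated YAP and TAZ are kept in the cytoplasm and degraded. Cell density and the actin cytoskeleton act on this switch, so that spread cells under tension have nuclear YAP and TAZ. In the nucleus they bind TEAD factors and raise secreted matricellular proteins such as CCN1 and CCN2, together with feedback inhibitors of the pathway. This regulation acts mainly on the protein, which RNA sequencing does not measure.

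Library totals lay between 17143139 and 24897586 counts. The mesenchymal marker VIM had between 20703 and 54409 counts in every library, and among the 9 luminal and receptor markers CDH1 had at most 12, ESR1 at most 18 and PGR 0 counts. The luminal keratins were abundant, KRT8 with 9430 to 27089 counts and KRT18 with 4197 to 10874, while ERBB2 had 1216 to 1996, GATA3 121 to 302, EPCAM 6 to 190 and FOXA1 at most 46. Of 8 markers of blood and endothelial cells, CD3E, CD68 and HBB had at most 3 counts in any library, CDH5 at most 6, VWF between 10 and 21, PTPRC between 8 and 216 and PECAM1 between 328 and 825. The 8 markers summed to 16.9 and 19.7 CPM in MDA-MB-231 and to 52.9 and 43.2 CPM in SUM159 with DMSO and MBZ. The 10 proliferation markers, such as MKI67 and CCNB1, summed to 3219 CPM (counts scaled to the library total with TMM factors and multiplied by 1e+06) with DMSO and 1664 CPM with MBZ in MDA-MB-231, all 10 being lower, and to 279 CPM and 1401 CPM in SUM159, all 10 being higher. Their part in the values below was not tested. In bulk RNA, fewer cells that express a gene and less of its RNA per cell cannot be told apart.

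TEAD factors bind the letters GGAATG, read as CATTCC on the other strand. For AP-1 factors the letters TGANTCA were used, with any base allowed at N. Both were searched on both strands in the 250 bases before each RefSeq transcription start, for which 10 windows of 7 genes were matched by symbol. CCN1, TEAD1 and TEAD4 had no window. CCN2 held 3 TEAD matches, starting 169, 104 and 95 bases before the start, ANKRD1 held 2, starting 220 and 128 bases before it, and YAP1 held 1, starting 162 bases before it. AMOTL2 and AXL held 1 match each before 1 of their 2 starts, and no match was found in the windows of LATS2 and WWTR1. Over all 35116 RefSeq windows, 11.9% held at least 1 TEAD match, 0.94% held at least 2 and 0.0826% held at least 3. ANKRD1 was the only 1 of the 7 genes with an AP-1 match, which 6.57% of all windows held. The windows of CCN2 (minus strand, chr6:131951373-131951622), ANKRD1 (minus strand, chr10:90921088-90921337) and YAP1 (plus strand, chr11:102110197-102110446) of GRCh38.p14 are given 5′ to 3′ on the gene's strand, with matches in capitals, because CCN2 and ANKRD1 hold the most matches and YAP1 encodes the coactivator. The capitals TGATTCA in ANKRD1 are the AP-1 match, with T at N, and all other capitals are TEAD matches. A match is a description of the letters and does not show that a factor was bound.
CCN2: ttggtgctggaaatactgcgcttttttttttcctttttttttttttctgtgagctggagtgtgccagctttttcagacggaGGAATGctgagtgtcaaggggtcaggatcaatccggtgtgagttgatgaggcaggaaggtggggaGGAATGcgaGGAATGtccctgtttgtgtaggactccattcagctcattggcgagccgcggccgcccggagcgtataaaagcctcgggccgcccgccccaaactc
ANKRD1: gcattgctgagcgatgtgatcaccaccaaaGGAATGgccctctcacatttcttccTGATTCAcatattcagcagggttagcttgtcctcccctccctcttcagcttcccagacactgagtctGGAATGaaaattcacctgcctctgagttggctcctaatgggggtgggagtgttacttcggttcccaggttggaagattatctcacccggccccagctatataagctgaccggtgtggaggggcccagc
YAP1: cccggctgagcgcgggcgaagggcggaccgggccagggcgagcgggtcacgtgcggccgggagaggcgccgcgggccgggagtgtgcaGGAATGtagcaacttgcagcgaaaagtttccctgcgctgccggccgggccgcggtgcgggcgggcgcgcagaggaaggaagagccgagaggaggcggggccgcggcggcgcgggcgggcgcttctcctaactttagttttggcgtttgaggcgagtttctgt

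First, the levels of the 10 genes were compared between the lines under vehicle. MDA-MB-231 treated with DMSO had far more RNA of CCN1, of CCN2 and of ANKRD1, an ankyrin repeat protein, than SUM159 with DMSO. CCN2 stood at 196 CPM in MDA-MB-231 and 3.92 CPM in SUM159, a level 50.0-fold higher in MDA-MB-231 (TMM scaling over the 4 libraries). ANKRD1 stood at 309 CPM in MDA-MB-231 and had 0 counts in SUM159, and with that count set to 3 its level was at least 1707-fold higher in MDA-MB-231. The 95% counting interval of SUM159 over MDA-MB-231 reached a somewhat smaller difference, -10.44 on the log2 scale. CCN1 stood at 519 and 84.3 CPM, 6.15-fold apart. The other genes were closer in level. In MDA-MB-231 AXL was 3.15-fold, TEAD1 2.88-fold, WWTR1 2.77-fold, YAP1 2.11-fold and LATS2 1.27-fold higher. AMOTL2 and TEAD4 were lower in MDA-MB-231, at 145 CPM against 159 CPM and at 27.3 CPM against 45.2 CPM. For all 10 genes the 95% counting interval of the difference left out 0, but it covers counting error only and compares the libraries, not the lines.

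Per kb of merged exon, AXL led in MDA-MB-231 with DMSO at 196 CPM per kb, followed by ANKRD1 at 173, CCN1 at 140 and CCN2 at 84.0 CPM per kb. YAP1 followed at 39.8, TEAD1 at 26.8, AMOTL2 at 22.4, WWTR1 at 21.4, TEAD4 at 12.0 and LATS2 at 7.72 CPM per kb. In SUM159 with DMSO, AXL led again at 62.3 CPM per kb, with AMOTL2 at 24.5, CCN1 at 22.8, TEAD4 at 19.9 and YAP1 at 18.9. TEAD1 stood at 9.31, WWTR1 at 7.73, LATS2 at 6.07 and CCN2 at 1.68 CPM per kb, and ANKRD1 had no counts. YAP1 exceeded WWTR1 per kb in both lines. With 1 library per condition the order has no replicate error.

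**Figure D1:**
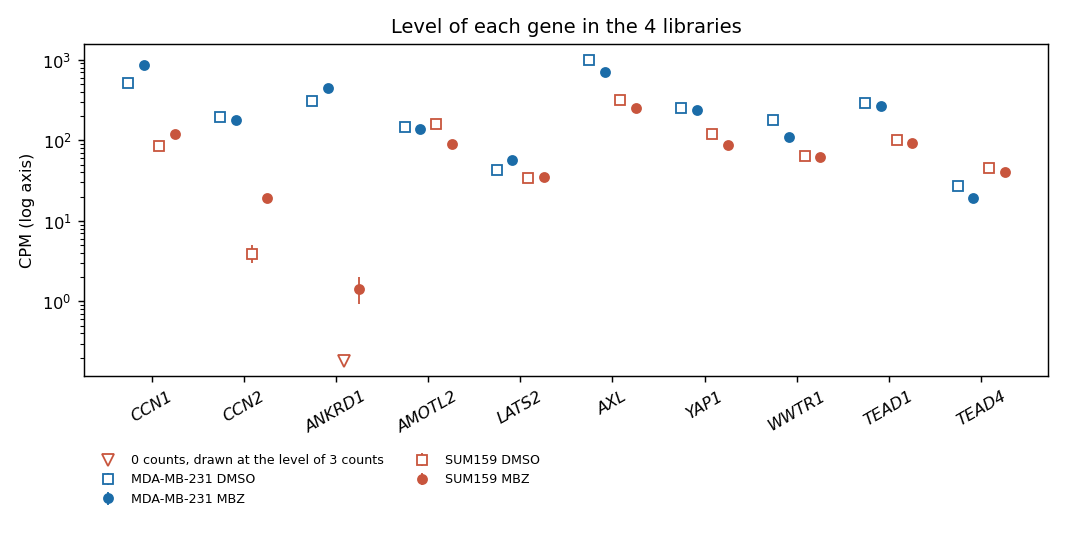
Levels of the 10 genes in the 4 libraries, in CPM on a log axis with TMM scaling over the 4 libraries. Squares are DMSO and filled circles MBZ, bars are 95% Poisson intervals of the count, and the open triangle is the count of 0 for ANKRD1 drawn at the level of 3 counts. CCN2 and ANKRD1 are the genes farthest apart between the lines, at 196 against 3.92 CPM for CCN2 with DMSO.

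The study asked how MBZ alters expression in the lines. The change after MBZ was measured as the log2 fold change of MBZ over DMSO within a line, with a counting interval (95%, Clopper-Pearson) from the reads of both libraries. No p-value was computed from these reads, which compare libraries and not treatments. In MDA-MB-231, CCN1 was the only gene of the 10 at least 1.5-fold higher and WWTR1 the only 1 at least 1.5-fold lower, whereas 18.3% of the 15142 genes compared were higher and 15.8% lower by that measure. In SUM159, CCN2 and ANKRD1 were at least 1.5-fold higher and AMOTL2 at least 1.5-fold lower, with 21.5% and 21.7% of 15674 genes so. None of these counts was above the share over all genes. None of the 10 was at least 1.5-fold higher in both lines or lower in both, as were 6.12% and 4.71% of the 13733 genes compared in both lines. With scaling by total counts, 2 of the 10, CCN1 and ANKRD1, were higher in both lines and 0 lower, against 11.8% and 1.61% of genes, CCN1 being at 0.99 on the log2 scale in MDA-MB-231 and 0.81 in SUM159. Also 0 were at least 1.5-fold changed in opposite directions, against 3.12% of genes lower in MDA-MB-231 and higher in SUM159 and 2.92% the other way round. At a fold of 2, MDA-MB-231 had 0 of the 10 genes higher and 0 lower (9.05% and 5.14% of all genes compared), and SUM159 had 2 higher and 0 lower (12.7% and 10.7%). At that fold 0 were higher in both lines (2.48%), lower in both (1.09%), or opposite in either order (0.83% and 0.874%). By the counting interval, CCN2 was the 1 gene below 0 in MDA-MB-231 and above 0 in SUM159 (10.6% of genes), and 0 genes lay above 0 in MDA-MB-231 and below 0 in SUM159 (9.4%). The median log2 fold change of the 10 genes was -0.12 in MDA-MB-231 and -0.08 in SUM159, against -0.02 and -0.03 over all genes compared. The SUM159 median stayed at -0.08 with the DMSO count of ANKRD1 set to 3. If libraries were scaled by their totals only, every log2 fold change would be higher, by 0.27 for MDA-MB-231 and 0.30 for SUM159 at the median gene. Under that scaling the medians of the 10 genes were 0.14 and 0.22, against 0.25 and 0.27 over all genes compared.

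**Figure D2:**
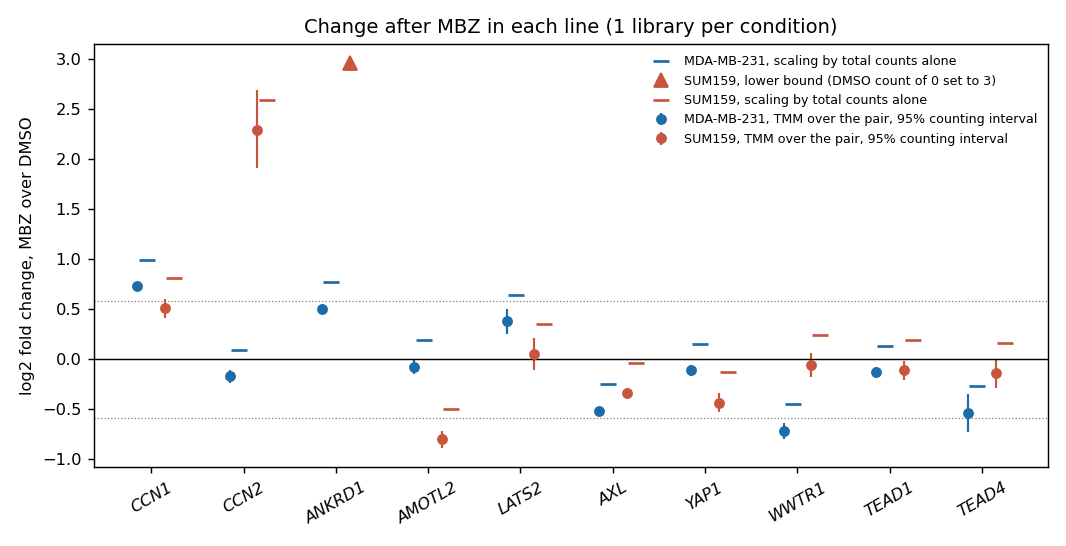
Log2 fold change of MBZ over DMSO for each gene, with MDA-MB-231 in blue and SUM159 in red. Circles with bars are TMM-scaled values with 95% counting intervals, and short dashes are the values with scaling by total counts. The triangle is ANKRD1 in SUM159, at 2.96 with its DMSO count of 0 set to 3, and dotted lines mark a 1.5-fold change. CCN2 in SUM159, at 2.29, is the highest of the values drawn as circles.

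Of the coactivators, WWTR1 (ENSG00000018408, TAZ, chromosome 3 from 149517235 to 149736714 of GRCh38, minus strand, 7 exons in the canonical transcript) counted 4158 reads under DMSO and 2092 under MBZ in MDA-MB-231, and 1070 and 1281 in SUM159. It was 1.65-fold lower in MDA-MB-231, at -0.72 on the log2 scale (interval -0.79 to -0.64), and -0.45 with scaling by total counts, which is less than 1.5-fold. The interval in SUM159, from -0.17 to 0.06 around -0.06, held 0, so that no difference was detectable at this depth with TMM scaling. With scaling by total counts the SUM159 value was 0.24. YAP1 (ENSG00000137693, chromosome 11 from 102110447 to 102233424, plus strand, 9 exons) had 5831 reads under DMSO and 4463 under MBZ in MDA-MB-231, and 1973 and 1817 in SUM159. Its log2 fold change was -0.11 (interval -0.17 to -0.06) in MDA-MB-231, but 0.15 with scaling by total counts. In SUM159 it was -0.44 (interval -0.53 to -0.34), lower under each scaling. Exons of WWTR1 share 756 bases with an antisense lncRNA and those of YAP1 share 628 and 11 bases with 2 antisense lncRNAs, and YAP1 has 3 processed pseudogenes, so reads of these loci could have been split or pooled in the counting.

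Because the scaling of libraries moved small changes across 0, reads of the genes were also set against those of YAP1 within each library, a ratio that needs no scaling. This measure was chosen after the values were seen. The ratio of WWTR1 to YAP1 reads went from 0.713 to 0.469 in MDA-MB-231, a log2 change of -0.61 (interval -0.70 to -0.51), and from 0.542 to 0.705 in SUM159, a log2 change of 0.38 (interval 0.23 to 0.53). The balance of the paralogs thus lay on opposite sides of 0 in the lines, beyond counting error. The CCN1 to YAP1 ratio went from 2.07 to 3.71 in MDA-MB-231 and from 0.708 to 1.36 in SUM159, log2 changes of 0.84 (interval 0.78 to 0.91) and 0.94 (interval 0.81 to 1.07). LATS2 was higher relative to YAP1 by 0.49 on the log2 scale in both lines, with intervals from 0.35 to 0.63 and from 0.31 to 0.67. CCN1 and LATS2 were therefore higher relative to YAP1 after MBZ in both pairs of libraries. YAP1 itself ranked 8579 of 15142 genes from the highest change in MDA-MB-231 and 11290 of 15674 in SUM159. Most genes compared were thus higher relative to YAP1 in each line. In SUM159 LATS2 itself had a log2 fold change of 0.05 and YAP1 of -0.44. The CCN2 to YAP1 ratio was 0.783 and 0.752 in MDA-MB-231, a log2 change of -0.06 (interval -0.14 to 0.03), and 0.0329 and 0.217 in SUM159, a log2 change of 2.72 (interval 2.33 to 3.11). AMOTL2 relative to YAP1 had log2 changes of 0.03 (interval -0.06 to 0.13) and -0.37 (interval -0.49 to -0.24), and AXL relative to YAP1 of -0.40 (interval -0.47 to -0.34) and 0.09 (interval -0.01 to 0.20).

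Among the TEAD factors, TEAD1 (ENSG00000187079, chromosome 11 from 12674421 to 12944737, plus strand, 13 exons) had 6664 and 5034 counts in MDA-MB-231 and 1650 and 1900 counts in SUM159 with DMSO and MBZ. Its log2 fold changes were -0.13 and -0.11, and 0.13 and 0.19 with scaling by total counts, which moves all genes upward. TEAD4 (ENSG00000197905, chromosome 12 from 2959330 to 3040676, plus strand, 13 exons) had 635 and 363 counts in MDA-MB-231, which gives -0.53 on the log2 scale (interval -0.72 to -0.35), and 749 and 845 counts in SUM159, a log2 fold change of -0.14 (interval -0.29 to 0.0015). With scaling by total counts these TEAD4 values were -0.27 and 0.16. TEAD4 was the lower of the pair in MDA-MB-231 and its ratio to TEAD1 reads went from 0.0953 to 0.0721 there, a log2 change of -0.40 (interval -0.60 to -0.21). In SUM159 that ratio was 0.454 and 0.445, a log2 change of -0.03 (interval -0.20 to 0.14). The other TEAD genes were read for comparison. TEAD2, a further family member, was 2.75-fold lower in MDA-MB-231 and 2.97-fold lower in SUM159, with 1377 and 414 counts and with 1589 and 665 counts. Among the reads of the 4 TEAD genes per kb of exon, TEAD2 made up 26.9% under DMSO and 13.9% under MBZ in MDA-MB-231, and 34.4% and 19.4% in SUM159. The share of TEAD1 was 36.3% and 47.1% in MDA-MB-231 and 9.95% and 15.4% in SUM159, so that TEAD1 held the largest share in MDA-MB-231 and the smallest in SUM159. TEAD4 held 16.2% and 16.0% in MDA-MB-231 and 21.3% and 32.3% in SUM159. A larger share need not mean more RNA of that gene. In SUM159 TEAD1 and TEAD4 had log2 fold changes of -0.11 and -0.14, against -1.57 for TEAD2 and -0.81 for TEAD3. Exons of TEAD2 share 319 bases with CD37 on the opposite strand.

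**Figure D3:**
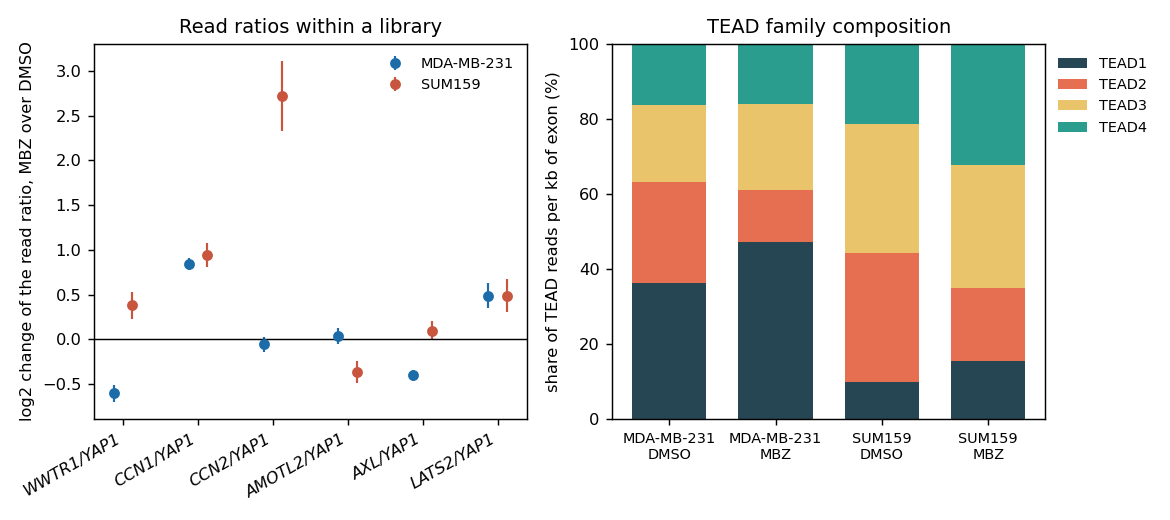
Left, log2 change from DMSO to MBZ in the ratio of each gene's reads to YAP1 reads within a library, with 95% counting intervals. Right, share of each TEAD gene in the TEAD reads per kb of exon in each library, in percent. WWTR1 relative to YAP1 lies at -0.61 in MDA-MB-231 and 0.38 in SUM159, and the TEAD2 share is smaller with MBZ in both lines.

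Of the target genes, CCN1 (ENSG00000142871, also called CYR61, a secreted integrin ligand, chromosome 1 from 85580761 to 85584589, plus strand, 5 exons) was higher after MBZ in each line under every scaling tried. It counted 12063 reads under DMSO and 16543 under MBZ in MDA-MB-231, and 1397 and 2471 counts in SUM159. The MBZ library exceeded the DMSO library in each line, by 1.66-fold in MDA-MB-231 (log2 fold change 0.73, interval 0.69 to 0.76) and by 1.42-fold in SUM159 (0.51, interval 0.41 to 0.60). CCN1 ranked 2126 of 15142 genes from the highest change in MDA-MB-231 and 3778 of 15674 in SUM159.

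CCN2 (ENSG00000118523, also called CTGF, connective tissue growth factor, chromosome 6 from 131948176 to 131951372, minus strand, 5 exons) had 4564 and 3355 counts in MDA-MB-231 and 65 and 395 counts in SUM159. It was 4.87-fold higher after MBZ in SUM159, or 2.29 on the log2 scale (interval 1.91 to 2.69), and ranked 550 of 15674 genes. In MDA-MB-231 its log2 fold change was -0.17 (interval -0.24 to -0.11), but 0.09 with scaling by total counts. Even after MBZ, CCN2 in SUM159 stood at 19.2 CPM against 176 CPM in MDA-MB-231, 9.21-fold apart, whereas with DMSO the lines were 50.0-fold apart. Exons of CCN2 share 278 bases with the antisense lncRNA LINC01013. Relative to CCN1 in the same library, CCN2 reads under MBZ were 1.87-fold fewer in MDA-MB-231 and 3.44-fold more in SUM159, log2 changes of -0.90 (interval -0.97 to -0.83) and 1.78 (interval 1.39 to 2.17).

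ANKRD1 (ENSG00000148677, chromosome 10 from 90912096 to 90921087, minus strand, 9 exons) had 7186 and 8416 counts in MDA-MB-231 and 0 and 29 counts in SUM159. It was 1.41-fold higher in MDA-MB-231 (log2 fold change 0.50, interval 0.45 to 0.55). In SUM159 it was at least 7.76-fold higher when the 0 was set to 3 counts, a log2 value of 2.96, and its 95% counting interval began at 2.57. The 29 reads amount to 1.41 CPM, against 443 CPM in MDA-MB-231 with MBZ, so that the change started from a level at which the gene was not detected. It was the higher library after MBZ in both lines, as for CCN1.

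AMOTL2 (ENSG00000114019, angiomotin-like 2, a junctional protein that binds YAP and restrains it, chromosome 3 from 134355347 to 134375479, minus strand, 10 exons) had 3379 and 2648 counts in MDA-MB-231 and 2627 and 1877 counts in SUM159. It was 1.74-fold lower after MBZ in SUM159 (log2 fold change -0.80, interval -0.89 to -0.72), and -0.50 with scaling by total counts, which is less than 1.5-fold. In MDA-MB-231 its log2 fold change was -0.08 (interval -0.15 to -0.01), but 0.19 with scaling by total counts. LATS2 (ENSG00000150457, a kinase that phosphorylates YAP and TAZ, chromosome 13 from 20973036 to 21061586, minus strand, 8 exons) had 1007 and 1082 counts in MDA-MB-231 and 564 and 729 counts in SUM159. It was 1.30-fold higher in MDA-MB-231 (0.38, interval 0.25 to 0.50) and not distinguishable from unchanged in SUM159 at this depth with TMM scaling (0.05, interval -0.11 to 0.22). With scaling by total counts LATS2 was at 0.64, which is more than 1.5-fold, and at 0.36. These feedback genes thus differed from each other, LATS2 being the higher and AMOTL2 the lower relative to YAP1 in SUM159. AXL (ENSG00000167601, a receptor tyrosine kinase, chromosome 19 from 41219223 to 41261766, plus strand, 20 exons) had 23386 and 13521 counts in MDA-MB-231 and 5299 and 5209 counts in SUM159. It was 1.43-fold lower in MDA-MB-231 (-0.52, interval -0.55 to -0.49) and 1.27-fold lower in SUM159 (-0.34, interval -0.40 to -0.29). Scaled by total counts, these values were -0.25 and -0.04. AMOTL2 exons share 187 bases with a pseudogene on the same strand, and AXL exons share 67 bases with an antisense lncRNA.

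The difference in response was then taken as the log2 fold change in SUM159 minus that in MDA-MB-231, with a 95% counting interval. No test of this difference against the spread between cultures was possible with 1 library per condition. It was 2.46 for CCN2 (interval 2.07 to 2.84), and 2.46 for ANKRD1 when its DMSO count in SUM159 was set to 3. The interval of the ANKRD1 change in SUM159 alone began at 2.57, against a change of 0.50 in MDA-MB-231. WWTR1 followed at 0.66 (interval 0.52 to 0.80), TEAD4 at 0.39 (interval 0.16 to 0.63) and AXL at 0.18 (interval 0.11 to 0.24). AMOTL2 was at -0.72 (interval -0.83 to -0.61), LATS2 at -0.32 (interval -0.52 to -0.12), YAP1 at -0.32 (interval -0.43 to -0.21) and CCN1 at -0.22 (interval -0.32 to -0.12). TEAD1 at 0.02 (interval -0.09 to 0.13) was the only gene whose interval held 0. In all, 5 genes lay above 0 and 4 below it beyond the counting interval, as did 32% and 34.5% of the 13733 genes compared in both lines. CCN2 and ANKRD1, with the largest differences of the 10, had the lowest counts of the 10 in SUM159 with DMSO.

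To test for a change common to the lines, edgeR's quasi-likelihood method was fitted to all 4 libraries with terms for line and treatment, the lines taking the place of replicates. None of the 10 genes passed an adjusted p of 0.05 (Benjamini-Hochberg over 16100 genes, of which 0.00621% passed it for a higher and 0% for a lower level), and 0 of the 10 had an unadjusted p under 0.05, as 7.14% of the genes tested had. CCN1 had the lowest adjusted p of the 10, 0.725 from edgeR's quasi-likelihood test, with a shared log2 fold change of 0.66 (SE 0.33), higher in both lines. DESeq2's Wald test also called 0 of the 10, and 0.643% of 15390 genes. With no filter beyond 1 count in the 4 libraries, edgeR called 298 genes of 32295, 0 of them among the 10, of which 2 had an unadjusted p under 0.05 (6.14% of all genes in that fit), and the lowest adjusted p of the 10 was 0.0725, for ANKRD1. In the filtered fit over 16100 genes, the common biological coefficient of variation was 0.323.

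Further genes known as YAP and TAZ targets were taken as a list of 25. In MDA-MB-231 3 were at least 1.5-fold higher and 3 lower, and the median was 0.03 on the log2 scale, and in SUM159 7 were higher and 11 lower, with a median of -0.45. Over all genes compared these shares were 18.3% and 15.8% in MDA-MB-231 and 21.5% and 21.7% in SUM159. Higher in both lines were 3 of the 25, against 6.12% of all genes compared. Among them, F3 is the gene of tissue factor and GADD45A a DNA damage and growth arrest gene. F3 was 2.68-fold higher in MDA-MB-231 and 3.36-fold higher in SUM159, and GADD45A 2.51-fold and 2.88-fold. In the shared test their adjusted p was 0.422 and 0.441 with edgeR's quasi-likelihood test and 0.00767 and 0.0258 with DESeq2's Wald test. CCDC80, a matrix protein, and RBMS3, an RNA-binding protein, were 10.8-fold and 4.98-fold lower in SUM159, but had log2 fold changes of 0.42 and -0.09 in MDA-MB-231. BIRC5, the gene of survivin and also 1 of the proliferation markers, was 2.26-fold lower in MDA-MB-231 and 6.27-fold higher in SUM159. Exons of RBMS3 share 1029 bases with another gene on the same strand. The list thus held genes far apart in their change, and 0 of its 25 genes passed edgeR's shared test in either direction.

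Of 27 Hippo kinases, adaptors and scaffolds, 26 could be compared, since AMOT had at most 8 counts. In MDA-MB-231 1 was at least 1.5-fold higher, 1 lower and 24 lay between, and in SUM159 1 was higher, 3 were lower and 22 lay between. The median log2 fold changes were 0.04 and -0.13. The MST cofactor SAV1 was 1.66-fold higher in MDA-MB-231 with a log2 fold change of -0.35 in SUM159, and its exons share 1789 bases with ATL1 on the opposite strand. In SUM159 RASSF1 was 2.58-fold higher, and WWC3, of the KIBRA family of adaptors, and the protocadherin FAT4 were 2.08-fold and 3.95-fold lower. In MDA-MB-231 RASSF1 had a log2 fold change of 0.11, WWC3 of -0.12 and FAT4 of 0.52. Exons of RASSF1 share 659 bases with an antisense lncRNA. None of the 26 passed edgeR's shared test. The shares over all genes compared were 18.3% and 15.8% in MDA-MB-231, and 21.5% and 21.7% in SUM159.

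The list of 6 other TEAD and VGLL genes holds further TEAD factors and vestigial-like cofactors that also bind TEAD. VGLL1 had 0 counts in all libraries and VGLL2 at most 3. TEAD2 had an adjusted p of 0.422 in edgeR's shared test and 0.0141 with DESeq2's Wald test, with a shared log2 fold change of -1.48 (SE 0.28), lower in both lines. TEAD3 had log2 fold changes of -0.35 and -0.81, VGLL3 of 0.87 and -0.06 and VGLL4 of -0.11 and -0.34 in MDA-MB-231 and SUM159. CCN3, a paralog of CCN1 and CCN2, was 3.45-fold higher in MDA-MB-231 and 1.37-fold lower in SUM159, and an antisense lncRNA overlaps 204 bases of its exons. Of the receptors related to AXL, TYRO3 was 2.98-fold lower in MDA-MB-231 and 1.30-fold lower in SUM159, and MERTK had log2 fold changes of 0.29 and -1.58. The AXL ligand GAS6 was 1.65-fold lower in MDA-MB-231 and 2.89-fold lower in SUM159, and PROS1, which binds TYRO3 and MERTK, was 1.23-fold and 4.34-fold lower. GAS6 and AXL were thus both lower after MBZ in each line, GAS6 by more. AXL was less than 1.5-fold lower in each line, and at -0.04 on the log2 scale in SUM159 with scaling by total counts. Exons of GAS6 share 421 bases with an antisense lncRNA.

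CCN1 and CCN2 are also targets of serum response factor (SRF), and AP-1 factors bind beside TEAD at many sites, so that the lists of SRF contractile targets and AP-1 genes were set beside the 10 genes. Of 14 SRF targets, 6 were at least 1.5-fold lower in MDA-MB-231 and 7 in SUM159, and 0 were higher in either line, with medians of -0.41 and -0.54. Of all genes compared, 15.8% and 21.7% were lower by that fold. MYL9, a myosin light chain, and the smooth muscle actin ACTA2 were at least 2-fold lower in both lines, as were 1.09% of the genes compared in both. ACTA2 had only 36 and 9 counts in MDA-MB-231, where its interval from -2.97 to -0.65 reached changes smaller than 2-fold, and on the opposite strand an lncRNA overlaps 1638 bases of its exons and FAS 387. Of the AP-1 genes, 5 of 11 in MDA-MB-231 and 6 of 10 in SUM159 were at least 1.5-fold higher, with medians of 0.25 and 0.87, against 18.3% and 21.5% of all genes compared. ATF3 was 17.3-fold and 5.11-fold higher and FOSB 15.1-fold and 5.84-fold higher. FOSL1, which encodes the AP-1 factor FRA1, was at -0.26 on the log2 scale in MDA-MB-231 and at 2.61 in SUM159, whereas FOS was at 1.72 and 0.11.

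**Figure D4:**
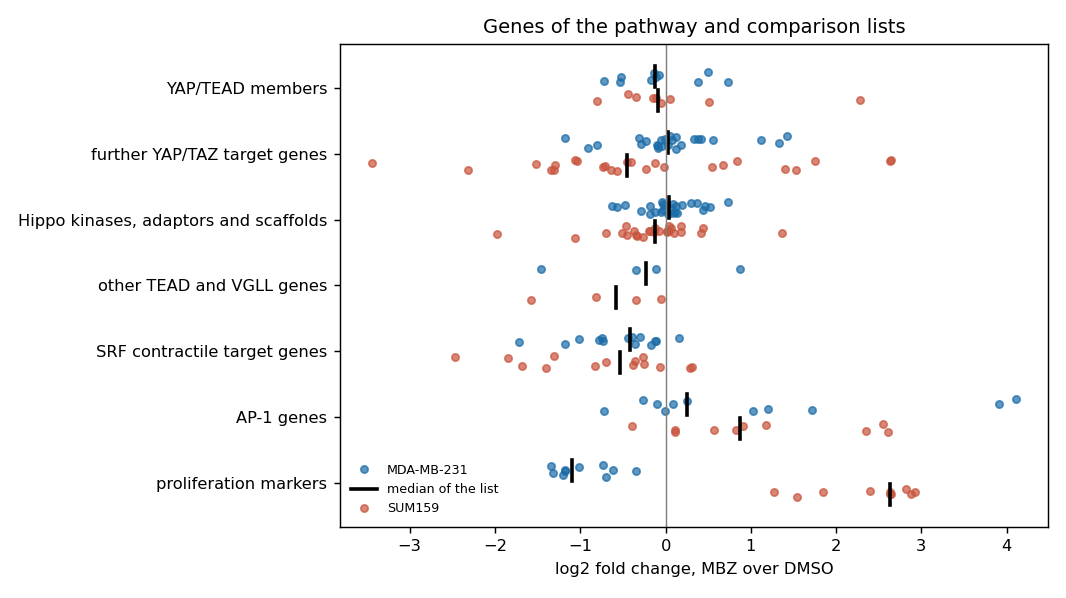
Log2 fold change of MBZ over DMSO for each gene compared (points) and the list median (black bar), with MDA-MB-231 in blue and SUM159 in red. ANKRD1 in SUM159, at 2.96 with its DMSO count of 0 set to 3, is not drawn. The 10 genes are centred near 0 in both lines, while the proliferation markers have medians of -1.09 in MDA-MB-231 and 2.64 in SUM159.

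The genes of the nearest pattern over the 4 libraries were found by the Euclidean distance of log2 CPM centred on each gene's mean, among 11141 other genes that averaged at least 100 counts. For CCN1 they were OCLN, PDE4D and STARD4, at distances of 0.20, 0.22 and 0.27 on the log2 scale. For CCN2 they were S100A5, EPHB3 and STARD8, at 0.14, 0.38 and 0.46. AXL was nearest to CYBA, LRRC8A and ALG8, at 0.06, 0.08 and 0.11, and YAP1 to TMEM123, P4HA1 and CHFR, at 0.06, 0.07 and 0.08. None of these 12 genes is among the 10. With 4 libraries many genes come close to any pattern, and the distances have no replicate error.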

How the data were processed

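RNA enriched for mRNA with poly-T beads was sequenced as paired reads. The deposited values are raw counts per gene, for which the authors used STAR 2.5 on GRCh38 and then HTSeq 0.6.1 (union mode). The annotation release and the strand setting are not given in the sources used here. Symbols, exon lengths and overlaps came from GENCODE 44, and 58207 of 58735 genes were matched to a symbol. Within a line, edgeR 4.0.16 (R 4.3.3) gave log2 fold changes with TMM over its 2 libraries and a prior count of 0.125, for genes averaging at least 10 counts in that pair. Levels and comparisons between lines used TMM over the 4 libraries. The change common to the lines was tested by edgeR's quasi-likelihood method (terms for line and treatment, filterByExpr, Benjamini-Hochberg adjustment), with DESeq2 1.42.0 as an alternative. Intervals cover counting error only, because each condition has 1 library. The reads carry no molecular identifiers and PCR copies are counted, so the intervals may be too narrow even for that error. Where a library had 3 or fewer counts, a fold was computed against 3 counts.

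The 10 genes, the gene lists and the tests were chosen with earlier results of these data known. The 10 genes are all named, and of each list the genes at least 2-fold changed the same way in both lines and up to 4 with the largest change in a line and a mean of at least 100 counts could be named. For CCN1, CCN2, AXL and YAP1, the 3 genes of nearest pattern were named, and genes that overlap a named gene. The functions were tested on simulated data. Promoter windows are those of RefSeq on GRCh38.p14. Alternatives were other scalings, prior counts, count minimums, a fold of 2 and other models for the shared test. Some list genes enter the counts and are not reported by name here.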

Additional observations from a re-analysis of the deposited data

Results flagged for a closer look

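CCN2 was the gene of the 10 whose counting intervals lay on opposite sides of 0 in the lines. MDA-MB-231 gave a log2 fold change of -0.17 and SUM159 of 2.29, a difference of 2.46. The difference was not tested against the spread between cultures, since each line has 1 library per treatment. Its direction in MDA-MB-231 turned with scaling by total counts, to 0.09, whereas that in SUM159 was 2.59 under that scaling. Of the 13733 genes compared in both lines, 10.6% had an interval below 0 in MDA-MB-231 and above 0 in SUM159. No group had more than 1 library, so no library could be compared with others of its group.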

How the results depend on the processing

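Scaling by total counts alone, without TMM factors, moved the most values. In MDA-MB-231 3 of the 10 genes were then at least 1.5-fold higher and 0 lower (29.1% and 7.57% of all genes compared), and the median log2 fold change was 0.14 (0.25 over all genes). In SUM159 3 were at least 1.5-fold higher and 0 lower (32.8% and 12.8% of all genes) and the median was 0.22 (0.27 over all genes). Under this scaling the log2 fold change turned to 0.094 for CCN2, 0.19 for AMOTL2, 0.15 for YAP1 and 0.13 for TEAD1 in MDA-MB-231, and to 0.19 for TEAD1, 0.24 for WWTR1 and 0.16 for TEAD4 in SUM159, where the intervals of WWTR1 and TEAD4 already held 0. By its construction this scaling shifts all genes of a line upward, ANKRD1 in SUM159 by less because of the prior count at 0, so that small negative values turn whichever gene they belong to. At a fold of 2, MDA-MB-231 had 0 higher and 0 lower, and SUM159 had 0 lower. With a mean of at least 100 counts, 1 gene, CCN2, was higher in SUM159, since ANKRD1 was left out. Without the cell line in the model, the shared log2 fold change of CCN2 was -0.0089, with an adjusted p of 1.00. Of 40 alternative values of the shared changes, 39 kept their direction. The shared test compares the treatments within lines, with cell line as a term, and no further pairing by replicate could be made with 1 library per group. Leaving out a library left no comparison within its line and no residual degrees of freedom in the shared fit. The depth limits ANKRD1 in SUM159, which had 0 counts with DMSO.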
